A study of Saccharomyces cerevisiae with 6 samples.

Results

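The 10 genes described here encode the enzymes that build, lengthen, desaturate, hydroxylate and activate fatty acids in Saccharomyces cerevisiae, baker's yeast. They were chosen by name from knowledge of the pathway, but with earlier results of these data known. All 10 were found among the 6470 genes or unnamed features of the array, each with 1 feature. All 10 were measured in each of the 5 aerated samples. OLE1 (YGL055W) and SCS7 (YMR272C) encode enzymes that use molecular oxygen. FAS1 (YKL182W), FAS2 (YPL231W) and ACC1 (YNR016C) encode the fatty acid synthase and the carboxylase that feeds it, ELO1 (YJL196C), ELO2 (YCR034W) and ELO3 (YLR372W) encode elongases, and FAA1 (YOR317W) and FAA4 (YMR246W) encode acyl-CoA synthetases.

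Per the labels, all cultures were grown without oxygen to exponential phase in sealed bottles of synthetic complete medium that had been purged with nitrogen and reduced with sodium dithionite. The medium of every group, the pool included, contained ergosterol and unsaturated fatty acids, which yeast cannot make without oxygen. Aeration then lasted 5, 10, 20, 60 or 120 min before the cells were collected, and their RNA was hybridised on 2-colour arrays against a pool of RNA from the cultures before aeration, while a sixth sample compared that pool with itself. The labels used here name no strain or genotype. For the 60 min sample the extraction protocol gives 20 min, and for the 5 min sample the description field is that of the self-hybridisation, so groups were read from the fields that name the RNA of each channel.

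Every value below is a log2 ratio with the aerated RNA over the pool, so that 1 is a 2-fold higher and -1 a 2-fold lower ratio. The direction follows the sample titles and is likely rather than settled: turned the other way in all samples, every sign would turn and the sizes would stay. The aerated RNA is named in the channel 2 source field at 5 and 10 min, and in the unnumbered source field at 20, 60 and 120 min. A turn of some samples only would also change differences between times, and was not tested. Over genes, the Pearson correlation was 0.65 between the 10 and 20 min samples, and 0.03 to 0.30 between the 60 min sample and the other aerated ones. The log base was read from the values. Each time is 1 sample, so a value at a single time has no error and no test, and a difference between times has no replicate check. In the self-hybridisation, where nothing differs by design, the central 95% of 3521 genes lay between -1.09 and 0.76. Because it comes from a single array, while dye-swapped arrays were combined for each time, its range is a rough guide only. The 60 min sample stood apart: the median distance of its genes from their own median was 0.55 in log2 units, against 0.18 to 0.24 in the other aerated samples. Among the 5883 genes measured at 60 min, ELO2 exceeded 98.1%, ELO3 89.4%, FAS2 68.5%, SCS7 56.8% and ELO1 48.6%, and the other 5 members lay between the 26.5% of ACC1 and the 38.9% of FAA1. RNA of a whole culture cannot tell apart less RNA per cell and fewer cells that carry it.

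Fatty acids are made in the cytosol from acetyl-CoA. Acc1 makes malonyl-CoA, the synthase of Fas1 and Fas2 joins these units into saturated chains, and the elongases of the endoplasmic reticulum add further units to them. None of these steps needs oxygen, whereas Ole1, the only fatty acid desaturase of this yeast, passes electrons to oxygen to place the double bond that keeps membranes fluid, and Scs7 uses oxygen to hydroxylate the very long chains of sphingolipids. OLE1 transcription is known to be raised in low oxygen and lowered by unsaturated fatty acids, through the membrane-bound activators Mga2 and Spt23.

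OLE1 was above the anaerobic pool at 10 min of aeration, below it at 20 min and close to it at 120 min. Its ratio at 5 min was near that in the self-hybridisation. Its log2 ratios at 5, 10, 20, 60 and 120 min were 0.33, 0.78, -1.26, -0.32 and -0.01, beside 0.28 in the self-hybridisation. The value at 10 min exceeded that of 96.1% of the genes measured at that time, and the value at 20 min, a 2.40-fold lower ratio, exceeded that of only 1.41%. Both lay outside the central 95% of the self-hybridisation, as did 6.26% of all genes at 10 min and 6.6% at 20 min. The 10 min value was just past the upper edge of 0.76, and the ratios at 5, 60 and 120 min lay inside. The difference between 20 and 10 min was -2.04, and 4 of the 6081 genes measured at both times had a more negative one. These 4 were INA1 and 3 features with no gene symbol, named because of their values. OLE1 spanned 2.04 between its lowest and its highest sample, a wider span than that of 92.0% of the 5771 genes measured in all 5 aerated samples, for which the median span was 0.94.

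SCS7 was also lowest at 20 min, with less distance from the pool than OLE1. Its log2 ratios were 0.12, -0.09, -0.82, 0.24 and -0.32 at 5, 10, 20, 60 and 120 min, and -0.38 in the self-hybridisation. The ratio at 20 min exceeded that of 3.96% of genes, while those at 5, 10 and 60 min lay between the 39th and 67th percentile of their samples. SCS7 was within 2-fold of the pool in all 5 samples and within the central 95% of the self-hybridisation in all 5, but its 20 min value was -1.03, past the 2-fold line, once the samples were scaled to equal spread. At 10 min OLE1 exceeded SCS7 by 0.87, and at 20 min it lay 0.44 below it.

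SUR2 encodes another oxygen-using enzyme of lipid synthesis, which hydroxylates the sphingoid base of sphingolipids, and was taken from the list of sphingolipid genes. Its log2 ratios were 0.19, -0.67, -2.02, -0.48 and -0.85 at 5, 10, 20, 60 and 120 min, and -0.01 in the self-hybridisation. The ratio at 20 min was 4.07-fold lower than the pool, and 24 of the 6292 genes measured then were lower still. OLE1, SCS7 and SUR2 thus had their lowest ratio in the same sample, as did 15.7% of all genes. So did FAS1, FAS2, FAA1 and FAA4, members outside the oxygen-using pair. In the sphingolipid list, 2 of 17 genes were at least 2-fold lower at 20 min, SUR2 and LAC1 (-1.79), against 2.5% of all genes. At 10 min OLE1, SCS7 and SUR2 were not alike, at 0.78, -0.09 and -0.67, while at 5 min they were at 0.33, 0.12 and 0.19.

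**Figure D1:**
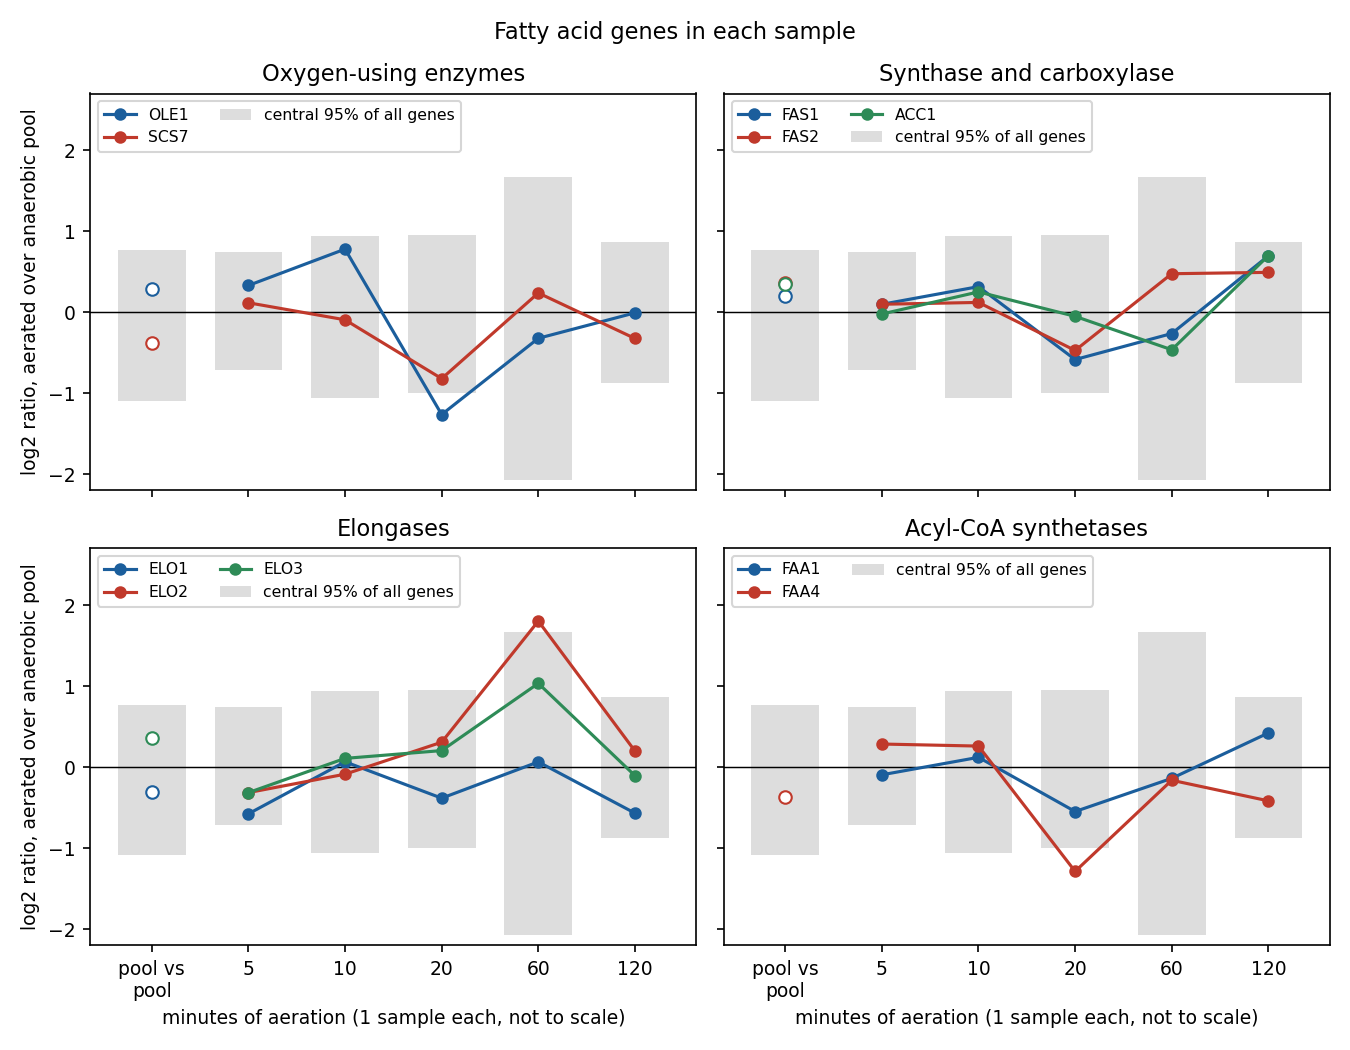
The log2 ratio of each of the 10 genes (vertical axis) is plotted for the pool against itself (open circles) and for each aeration time in minutes (filled circles, 1 sample each), with grey bars for the central 95% of all genes measured in that sample. OLE1 and FAA4 fall below the bar at 20 min, at -1.26 and -1.29, and ELO2 stands above it at 60 min, at 1.80.

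The genes of the synthase and of acetyl-CoA carboxylase stayed within 2-fold of the pool at all 5 times. Of all genes, 2.09% to 4.96% were at least 2-fold away at 5, 10, 20 and 120 min, and 24.3% at 60 min. FAS1, which encodes the beta subunit of the synthase, was at 0.10, 0.32, -0.58, -0.26 and 0.70 at 5, 10, 20, 60 and 120 min, beside 0.20 in the self-hybridisation. FAS2, which encodes the alpha subunit, was at 0.10, 0.12, -0.47, 0.47 and 0.49, and at 0.37 in the self-hybridisation. Both subunit genes were lowest at 20 min and highest at 120 min. Their ratios differed by 0.20 or less at 5, 10 and 20 min and by 0.20 at 120 min, and at 60 min FAS1 lay 0.74 below FAS2.

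ACC1, whose product makes the malonyl-CoA that the synthase consumes, was at -0.02, 0.25, -0.05, -0.46 and 0.70 at 5, 10, 20, 60 and 120 min, beside 0.34 in the self-hybridisation. It matched FAS1 at 120 min to within 0.003 and exceeded it by 0.53 at 20 min, where ACC1 was close to the pool. At 120 min FAS1 and ACC1 both exceeded 95.4% of the genes measured, and FAS2 exceeded 90.2%. No value of the 3 genes left the central 95% of the self-hybridisation, in which all 3 were above 0.

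The 3 elongase genes did not follow one course. ELO1, whose product lengthens medium-length chains, was at -0.58, 0.07, -0.38, 0.06 and -0.57 at 5, 10, 20, 60 and 120 min, beside -0.31 in the self-hybridisation. ELO2, needed for the very long chains of sphingolipids, was at -0.31, -0.09, 0.31, 1.80 and 0.20 and had no value in the self-hybridisation. ELO3, which makes the longest of these chains, was at -0.31, 0.11, 0.20, 1.03 and -0.11, and at 0.36 in the self-hybridisation.

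ELO2 and ELO3 were both lowest at 5 min and highest at 60 min, the only sample in which either was 2-fold from the pool. The 60 min ratio was the highest of the 5 for 40% of all genes. ELO2 at 60 min was 3.49-fold above the pool and exceeded 98.1% of the genes of that sample, and ELO3 was 2.05-fold above it and exceeded 89.4%. After the samples were scaled to equal spread, the 60 min values were 0.94 and 0.54, below the 2-fold line. ELO2 lay above ELO1 by 1.74 at 60 min and by 0.77 at 120 min, and 0.15 below it at 10 min, while ELO3 lay above ELO1 in 5 of 5 samples, by 0.04 to 0.97. ELO1 had a span of 0.64 over the 5 samples, narrower than that of most genes, with only 25.9% spanning less.

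FAA1 and FAA4 encode the acyl-CoA synthetases that activate fatty acids taken up from the medium, which here supplied unsaturated ones. FAA4 was at 0.29, 0.26, -1.29, -0.16 and -0.42 at 5, 10, 20, 60 and 120 min, beside -0.37 in the self-hybridisation. Its 20 min ratio was 2.44-fold lower than the pool and exceeded that of 1.35% of genes. FAA1 was at -0.09, 0.12, -0.55, -0.14 and 0.42, with no value in the self-hybridisation.

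Both synthetase genes were lowest at 20 min. FAA4 was the lower of them by 0.74 at 20 min, by 0.02 at 60 min and by 0.84 at 120 min, and the higher by 0.38 at 5 min and by 0.14 at 10 min. From 10 to 20 min FAA4 differed by -1.55, more negative than for all but 14 of 6081 genes, and FAA1 by -0.67.

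Over the 50 member values in the aerated samples, 4 were at least 2-fold from the pool, against 7.69% of the values of all genes. These were OLE1 and FAA4, lower at 20 min, and ELO2 and ELO3, higher at 60 min. The same 4 values and that of OLE1 at 10 min, 5 of 50, lay outside the central 95% of the self-hybridisation, against 9.93% of the values of all genes. At 20 min the share of all genes that were at least 2-fold away was 4.74%, and 2 of 10 members were. The same share was 24.3% at 60 min, where 2 of 10 members is not more than the share of all genes. At 5, 10 and 120 min 0 of 10 members were, against 2.09%, 4.96% and 3.19% of all genes. If the deposited values were log2 and not natural logs, every ratio would shrink, and 0 members at 20 min and 1 at 60 min would be 2-fold away.

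The sample at 20 min was the one in which most members were low, or high if the direction is turned. There 8 of 10 members were below 0, against 50.2% of all genes, with a member median of -0.51 beside a median of -0.002 over all genes. ELO2 and ELO3 were the members above 0. At 10 min 8 of 10 were above 0, against 50% of all genes, with a median of 0.12, and at 5, 60 and 120 min 5 of 10 were above 0, against 50.1%, 54.4% and 48.6%. The member median at these 3 times was 0.04, -0.04 and 0.10. For 6 members, OLE1, SCS7, FAS1, FAS2, FAA1 and FAA4, the lowest of the 5 ratios was that at 20 min, which held for 15.7% of all genes. The 3 elongase genes had theirs at 5 min (18.8% of all genes) and ACC1 at 60 min (33% of all genes).

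Ratios at neighbouring times, which share the pool, were also subtracted from each other. From 10 to 20 min 8 of 10 members had a negative difference, against 49.5% of all genes, with a member median of -0.63 and a median over all genes of 0.004. OLE1 and FAA4 were lower by 1 or more, as were 1.25% of all genes. Next came FAS1 at -0.90, SCS7 at -0.73, FAA1 at -0.67 and FAS2 at -0.59. From 20 to 60 min 1 of 10 members, ACC1 at -0.41, had a negative difference, against 44.5% of all genes. The median over all genes in that step was 0.11. ELO2, FAA4 and SCS7 differed by 1 or more in that step, FAA4 by 1.13 and SCS7 by 1.06, as 10.7% of all genes did. From 60 to 120 min 5 of 10 members had a negative difference, against 54.3% of all genes, and values ran from -1.60 for ELO2 and -1.14 for ELO3 to 0.96 for FAS1 and 1.16 for ACC1. In that step 13% of all genes were lower by 1 or more and 13.6% higher. From 5 to 10 min all 10 members differed by less than 1, between -0.21 for SCS7 and 0.64 for ELO1.

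**Figure D2:**
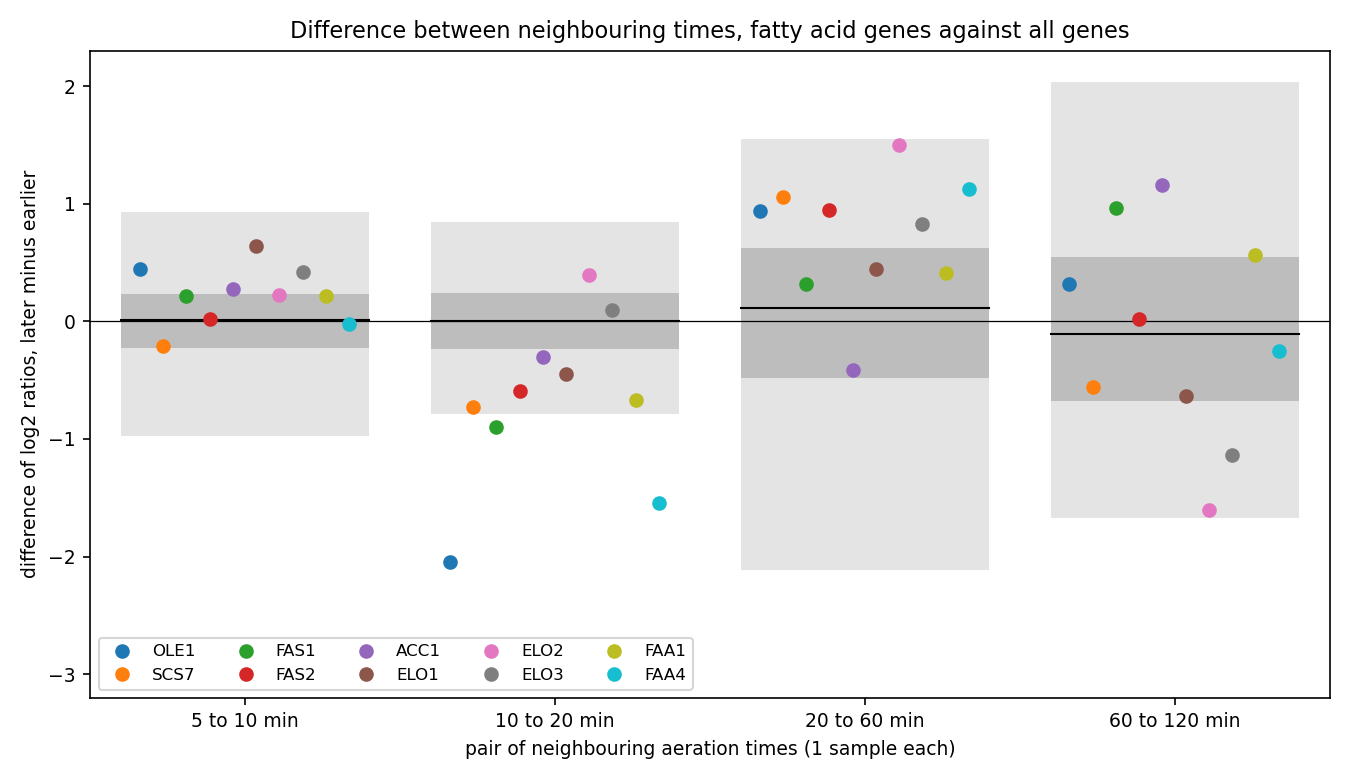
For each pair of neighbouring aeration times, the difference of log2 ratios (later minus earlier, vertical axis) is shown as a point for each of the 10 genes, over the central 95% (light grey), the middle 50% (dark grey) and the median (black line) of all genes. OLE1 at -2.04, FAA4 at -1.55 and FAS1 at -0.90 lie below the light grey range from 10 to 20 min.

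The mean over the 5 aeration times, the slope on log2 of minutes and the difference between late (60 and 120 min) and early (5 and 10 min) samples were tested with limma over the 5771 genes with 5 values. For the mean, 0 of 10 members passed, against 0% of all genes at an adjusted p under 0.05 and 14.1% at an unadjusted p under 0.05, where again 0 of 10 members were. The estimates ran from -0.28 ± 0.15 (SE, n = 5) for ELO1, the member with the smallest limma adjusted p (0.47), to 0.38 ± 0.29 for ELO2, whose mean was 0.026 without the 60 min sample and 0.045 with array weights. OLE1 was at -0.10 ± 0.27, with 2 of 5 samples above 0. Without the 20 min sample its mean was 0.19, so the sign of that mean rests on 1 sample. Since changes over time count as spread in this test, a gene that is first high and then low, as OLE1 was here, has a mean near 0 and a large error.

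For the slope, 0 of 10 members passed, against 0.0173% of all genes (1 gene) at an adjusted p under 0.05 and 2.79% unadjusted. ELO2 had the largest estimate, 0.26 ± 0.16 per doubling of the aeration time (limma adjusted p = 0.936), and OLE1 and FAA4 the most negative, both at -0.13, with SEs of 0.17 and 0.14. With 1 sample left out, the slope ran from 0.11 (without 60 min) to 0.60 (without 120 min) for ELO2, from -0.30 to -0.042 for OLE1 and from -0.20 to -0.042 for FAA4. Between late and early samples, 0 of 10 members and 0% of all genes passed, with 3.6% of all genes at an unadjusted p under 0.05. ELO2 differed by 1.20 ± 0.57, ELO3 by 0.57 ± 0.48, OLE1 by -0.72 ± 0.35 and FAA4 by -0.56 ± 0.32 (limma adjusted p = 0.788 for each). The late minus early difference of ELO2 was 2.004 (limma adjusted p = 0.0288) without the 120 min sample, a fit in which 1099 of 5771 genes passed and the late samples were that of 60 min alone, and 0.40 without the 60 min sample. For ELO3 the same difference became -0.0019 when 60 min was left out and 1.14 when 120 min was. A p that misses the threshold here does not show that a gene did not change, with 1 sample per time and standard errors of this size.

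**Figure D3:**
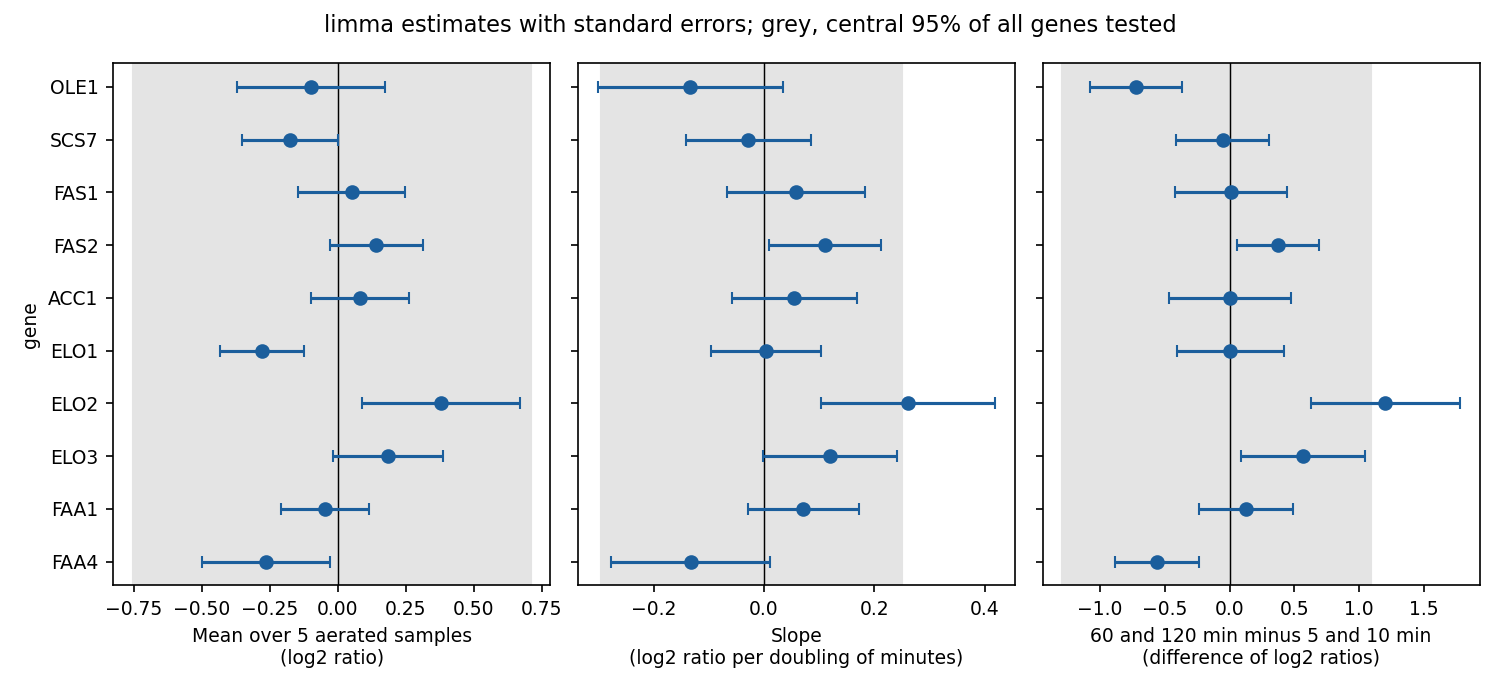
Points are limma estimates for each of the 10 genes and bars their standard errors (n = 5 samples), for the mean log2 ratio, the slope per doubling of minutes and the late minus early difference, with the central 95% of all 5771 genes in grey. Only ELO2, in the slope (0.26) and the late minus early difference (1.20), lies outside the grey range.

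The genes nearest to 3 of the members over the 5 aerated samples were found by the root mean square difference of their log2 ratios, over 5288 other named genes. Nearest to OLE1 were NDI1, the internal NADH dehydrogenase of mitochondria, at 0.30, FAA4 at 0.30 and UGP1, which makes UDP-glucose, at 0.32. All 3 had ratios between -1.29 and -0.98 at 20 min and none reached the 0.78 of OLE1 at 10 min. Nearest to SCS7 were CPR4, VMA2 and RTT105, at 0.11 to 0.12, and nearest to FAS1 were HAB1 at 0.07, YGP1 at 0.13 and FAA1 at 0.18. The neighbours depend on the measure. By Pearson correlation, 0 of the 3 stayed nearest for OLE1, 1 of 3 for SCS7 and 1 of 3 for FAS1. All these ratios share the pool, and the description says nothing of shared control.

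A further 73 genes in 9 lists cover the electron donors, the regulators and the neighbouring pathways, and all 73 were on the array. Of the 70 that were measured at every time, 0 passed in limma in either direction for the mean, the slope or the late minus early difference, while 12, 2 and 1 had an unadjusted p under 0.05, beside the 14.1%, 2.79% and 3.6% of all genes.

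The list of electron donors holds the genes of cytochrome b5 and of reductases, and these genes differed among themselves. Whether any of them serves Ole1 or Scs7 was not tested. CYB5, which encodes cytochrome b5, was at 1.07, 0.02, 0.17, -0.33 and -0.93 at 5, 10, 20, 60 and 120 min, beside -0.30 in the self-hybridisation. Its ratio exceeded that of 99.0% of genes at 5 min and of 2.22% at 120 min. The slope was -0.37 ± 0.09 per doubling of the aeration time (limma adjusted p = 0.936 over all genes). NCP1, the reductase that serves cytochrome P450 enzymes, was at 0.63, -0.31, -0.77, 0.01 and -0.91, and at 0.29 in the self-hybridisation. Both were thus highest at 5 min and lowest at 120 min. CBR1, the microsomal cytochrome b5 reductase, lay between -0.25 and 0.17 except at 60 min, where it was at 0.90 and exceeded 85.9% of genes, and MCR1, a mitochondrial one, lay between -0.47 and 0.28.

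The genes of the known regulators stayed within 2-fold of the pool in all 5 samples, as most genes did. At least 2-fold away were 2.09%, 4.96%, 4.74%, 24.3% and 3.19% of all genes at 5, 10, 20, 60 and 120 min. MGA2 and SPT23, the activators of OLE1, were at -0.67 and -0.23 at 20 min, the time of the lowest OLE1 ratio, and at -0.30 and -0.26 at 10 min, the time of its highest. MGA2 was at 0.05, -0.39 and -0.50 at 5, 60 and 120 min, and its value in the self-hybridisation, -0.60, was lower than in 4 of the 5 aerated samples. UBX2, which helps to release the active forms of Mga2 and Spt23 from the membrane, lay between -0.44 and 0.54, beside -0.75 in the self-hybridisation. OPI1, the repressor of the activator pair Ino2 and Ino4 that is known to act on FAS1, FAS2 and ACC1, was above 0 in 5 of 5 samples and highest at 120 min, at 0.90, beside -0.55 in the self-hybridisation. INO2 lay between -0.20 and 0.54 and INO4 between -0.30 and 0.45. OAF1 and PIP2, which activate genes of fatty acid breakdown in the presence of oleate, stayed between -0.27 and 0.21. SNF1, the kinase that inactivates Acc1, was lowest at 60 min, at -0.66, which exceeded 20.4% of the genes of that sample.

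**Figure D4:**
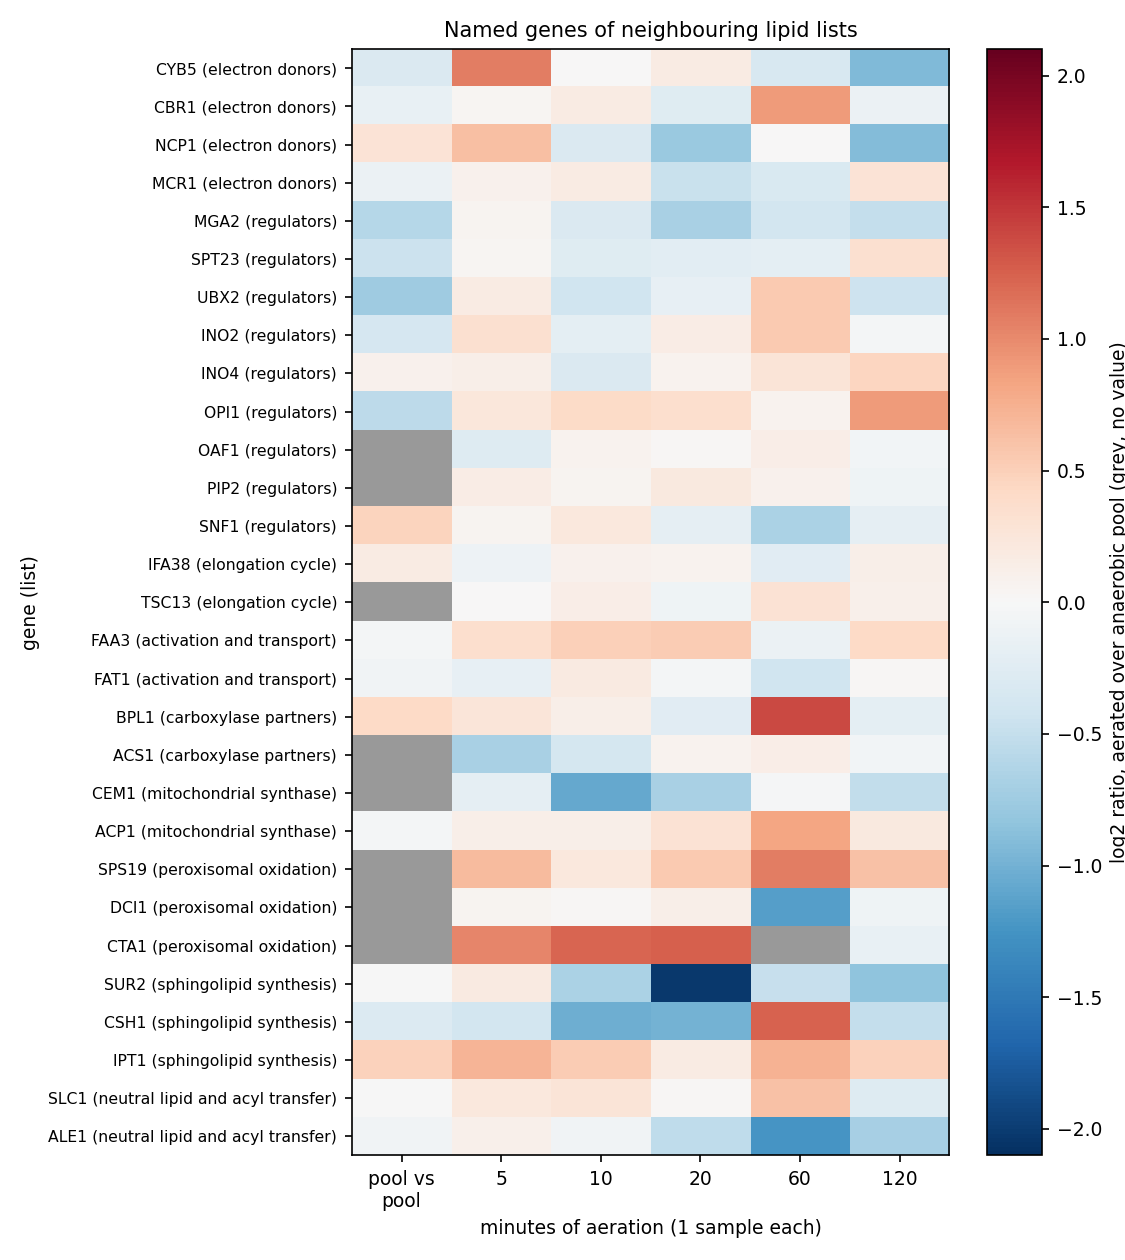
Colours give the log2 ratio of 29 named genes of the neighbouring lists (vertical axis, list in brackets) in the pool against itself and at each aeration time in minutes (horizontal axis, 1 sample each), with grey for no value. SUR2 at 20 min, at -2.02, is the lowest value shown and BPL1 at 60 min, at 1.39, the highest.

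The other steps of elongation, the reductases and dehydratase IFA38, PHS1 and TSC13, had list medians between -0.08 and 0.30 at the 5 times, and 0 of 3 were 2-fold away at any of them. Other activation and transport genes also stayed within 2-fold in all samples, with FAA3, a further acyl-CoA synthetase gene, the highest in the mean at 0.34 ± 0.14 and FAT1 the lowest at -0.08 ± 0.14. Of the genes that serve Acc1, BPL1, which attaches its biotin, was at 1.39 at 60 min, above 95.3% of genes, and between -0.23 and 0.25 otherwise, with 0.42 in the self-hybridisation. ACS1, an acetyl-CoA synthetase gene, was at -0.69 at 5 min and between -0.37 and 0.14 later. In the mitochondrial synthase list CEM1, the condensing enzyme, was lowest in the mean at -0.50 ± 0.18, with -1.08 at 10 min, and the acyl carrier protein gene ACP1 highest at 0.32 ± 0.15.

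Peroxisomal fatty acid oxidation genes had a median of 1.00 at 60 min, where 3 of 7 measured were at least 2-fold higher, beside 11.4% of all genes, and DCI1, at -1.16, was 2-fold lower, as were 12.9% of all genes. With the samples scaled to equal spread that median was 0.52, with 1 of 7 higher and 0 lower. The medians at the other times lay between -0.07 and 0.22. CTA1, the peroxisomal catalase, had ratios of 1.03, 1.22 and 1.26 in the 5, 10 and 20 min samples and -0.15 in the 120 min sample, and was not measured in the other two. SPS19, an accessory reductase for unsaturated chains, was above 0 in 5 of 5 samples, with a mean of 0.63 ± 0.15 (limma adjusted p = 0.136). It was named for the highest mean of that list, a choice that favours ratios above 0. DCI1 was the lowest of that list in the mean, at -0.21 ± 0.21.

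Sphingolipid synthesis genes, into which the products of ELO2, ELO3 and SCS7 feed, had a median of -0.31 at 20 min. At 10, 20 and 120 min 11 of 17 were below 0, against 50%, 50.2% and 51.4% of all genes, and at 5 min 10 of 17 were, against 49.9%. At 60 min 7 of 17 were below 0, against 45.6% of all genes, and the list median was 0.07. In that sample 3 of 17 were at least 2-fold higher, against 11.4% of all genes, and 0 with the samples scaled to equal spread. SUR2 had the lowest mean of the list at -0.77 ± 0.28 (limma adjusted p = 0.272). IPT1, the last step to the most complex sphingolipid, had the highest at 0.53 ± 0.14, above 0 in 5 of 5 samples and at 0.48 in the self-hybridisation. It was named for that highest mean, a choice that favours ratios above 0. CSH1, of mannosylated sphingolipid synthesis, had ratios of -1.03, -0.99 and 1.23 in the 10, 20 and 60 min samples, the last above 93.2% of genes. Genes of acyl transfer and neutral lipids had a median of -0.28 at 20 min and of -0.24 at 120 min, where 11 of 12 were below 0, against 51.4% of all genes. ALE1, a lysophospholipid acyltransferase gene, had the lowest mean at -0.49 ± 0.21 and SLC1 the highest at 0.17 ± 0.16.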

How the data were processed

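The deposited table holds 6 columns of log ratios for 6495 features, already normalized by the authors. Per the series' design text, each aerated column condenses a dye-swap pair of arrays into a single value per feature. How they were normalized, corrected for background and filtered is not given in the sources used here. No label names the log base. Because -4.6051702, the lowest of all deposited values, equals the natural log of 0.01, the values were read as natural log ratios and divided by 0.6931 to give log2. Spot intensities were not used here, which leaves signal over background unknown, and precision is limited by the number of arrays. Symbols came from the platform table, matched by gene identifier to the R64 reference table, which was used for names only. Features of the same gene were averaged (25 genes).

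Tests used limma 3.58.1 in R 4.3.3 (lmFit, eBayes, two-sided, Benjamini-Hochberg over 5771 genes, threshold 0.05) on the 5 aerated samples, tested on simulated data first. The flasks of different times stand in as replicates, and the pool's own spread is left out of the mean. Alternatives were centring, scaling, array weights, another gene set, features kept apart, leaving out each sample, another fold threshold and log base. The 10 members and the 9 lists were chosen with earlier results of these data known. Named genes of the lists were the highest and lowest in the mean, all electron donors and regulators, SUR2, and any gene 2-fold away at 2 or more times. For genes named as highest or lowest, the choice itself favours a mean far from 0. Genes most like OLE1, SCS7 and FAS1 were the 3 nearest each.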

Additional observations from a re-analysis of the deposited data

How the results depend on the processing

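No group holds more than 1 sample, and no paired analysis was possible because the groups compared share fewer than 2 replicate numbers. In 0 of the alternatives did a member pass for the mean or the slope, and for the late minus early difference ELO2 passed without the 120 min sample only. Genes past the threshold for the mean numbered 0, but 552 with array weights, 65 with samples scaled to the same spread, 1 among genes with a value in all 6 samples, and 0 to 25 with 1 sample left out (13 without 5 min and 25 without 60 min). For the slope the count was 1, but 0 with samples centred, 0 with array weights, 2 with samples scaled, and 0 to 1 with 1 sample left out. For late minus early it was 0, but 0 to 1099 with 1 sample left out (3 without 5 min, 10 without 10 min, 1099 without 120 min). Members at least 2-fold away at 20 min numbered 2, but 0 with values read as log2, 3 with samples scaled and 3 at 1.5-fold, and at 60 min 1 with values read as log2, 1 with samples centred and 0 with samples scaled. At 1.5-fold, 1 member was away at 10 min and 2 at 120 min.

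Some member estimates changed sign, among them the late minus early difference of ELO3, from 0.57 to -0.0019 without 60 min. With array weights the mean of OLE1 was 0.12, and the slopes were -0.027 for FAS1, -0.051 for ELO1 and -0.00043 for FAA1. With samples centred the slope of ELO1 was -0.0032 and the late minus early differences were -0.029 for FAS1, -0.036 for ACC1 and -0.035 for ELO1. With 1 sample left out the means ran from -0.32 to 0.19 for OLE1, -0.11 to 0.21 for FAS1, -0.072 to 0.22 for ACC1, -0.03 to 0.31 for ELO3 and -0.17 to 0.078 for FAA1. The slopes ran from -0.094 to 0.055 for SCS7, -0.15 to 0.12 for FAS1, -0.15 to 0.15 for ACC1, -0.10 to 0.13 for ELO1 and -0.055 to 0.11 for FAA1. The late minus early differences ran from -0.34 to 0.23 for SCS7, -0.47 to 0.49 for FAS1, -0.58 to 0.58 for ACC1, -0.32 to 0.32 for ELO1, -0.0019 to 1.14 for ELO3 and -0.15 to 0.41 for FAA1. The cause was not tested. By Pearson correlation, 0 of the 3 genes nearest to OLE1, 1 of those nearest to SCS7 and 1 of those nearest to FAS1 were the same.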
